A study of Mus musculus with 2 samples.

Results

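The subunits of the oxidative phosphorylation machinery were compared between the RNA of mouse embryonic fibroblasts (MEFs, connective tissue cells grown from embryos) labelled Lats2-/- and that labelled Lats2+/+. Members were all probes of the array, control spots aside, whose gene name begins with Ndufa, Ndufb, Ndufc, Ndufs or Ndufv, Uqcr with a further letter, Cox4 to Cox8, or Atp5, or is one of Sdha to Sdhd. This rule took 115 of 41174 probes and 82 of 27745 gene names. By name, 37 belong to complex I, 4 to complex II, 6 to complex III, 17 to complex IV and 15 to complex V, and 3 (Ndufaf1, Cox4nb and Atp5s) are not subunits. The rule itself reads only names, though it was proposed with earlier results of these data known.

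Oxidative phosphorylation is the last step of respiration. Complexes I and II take electrons from NADH and succinate, complex III passes them to cytochrome c, and complex IV hands them to oxygen. Complexes I, III and IV pump protons across the inner mitochondrial membrane, and complex V, the ATP synthase, lets them return through its membrane part Fo to drive ATP synthesis in its soluble part F1. Most subunits are encoded in the nucleus and imported, and several complex IV subunits exist as a common form and a form of muscle, lung or testis.

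Both groups were C57BL/6J MEFs with no treatment, one Lats2-/- (KO) and the other Lats2+/+ (WT). The age of the embryos and the number of animals behind each RNA are not given in the sources used here. A legend in the study's supplement speaks of several independent cell lines for its profile of Lats2 KO MEFs. Whether that profile holds the arrays used here is not given, and the labels name no lines. On 1 array the KO RNA carried the red dye Cy5 and the WT RNA the green dye Cy3, and on the other the dyes were exchanged. The pair was counted as a dye swap of 1 replicate per genotype, so no difference below has a replicate check, and no p-value is given. The spread between the arrays measures dye and hybridisation error, and the small number of arrays limits the precision of every value.

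Some facts of the arrays bear on all values. The median spot signal was 58.2 to 98.5 units in the 4 channels over background medians of 30 to 36, and 0 spots were saturated. Of the 4 probes of Lats2, the deleted gene, 3 had higher signals in the RNA labelled KO, with mean log2 ratios of 0.56 to 0.63, and the other had a ratio of -0.35. Which part of the gene was deleted is not given in the sources used here, and a probe outside it would check nothing. The 3 higher probes lie close together (chromosome 14, 56644080 to 56645305), so they are not separate checks. The other lies apart, at 56676512 to 56676571. The study's supplement shows loss of Lats2 in its KO MEFs by western blot, which does not check the labels of these arrays. The targeted gene thus goes against the label at the place of the 3 probes and with it at the place of the other. For this reason the text speaks of RNA labelled KO or labelled WT, and each direction below rests on the labels. Of the fibroblast markers, 10 of the 11 with a usable probe were well above background in both RNAs. The other was Vim, whose bright probe carried an outlier flag. All 4 endothelial markers were not well above background in both RNAs. Of the markers of other cells with a usable probe, some were. They were 2 of 5 for blood (Cd14 at -1.05 and Cd68 at 0.14) and 2 of 4 for epithelium (Krt5 at 0.01 and Krt14 at -0.08). For neural cells they were 2 of 3 (Nes at -0.30 and Tubb3 at -0.11).

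Since many respiratory genes are known targets of the transcription factors NRF1, GABP and YY1, the promoters of the members were searched for short motifs. Promoters were those of RefSeq on GRCm38.p6, from 250 bases before to 50 after each transcript start, and both strands were read. Of the 82 names, 81 matched a RefSeq gene, 3 of them under a newer symbol, and 66 had a promoter. The NRF1 core GCGCATGC stood in 9 of these 66 genes (13.6%), against 3.05% of the 27025 genes in the promoter set. The YY1 core AGATGGCG stood in 7 (10.6%, against 2.27%). The ETS or GABP core CCGGAAGT stood in 4 (6.06%, against 4.31%) and the TATA box TATAAAA in 3 (4.55%, against 6.39%). Cores of different factors did not overlap in any of the windows printed here. The windows below hold the NRF1 core before the start, with the core or its reverse complement in capitals. In the first 4 both overlap in 1 palindrome. They are given 5′ to 3′ on the gene's strand.

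Atp5g2: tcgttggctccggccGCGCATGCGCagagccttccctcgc
Atp5k: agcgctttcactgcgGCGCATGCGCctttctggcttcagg
Cox6a1: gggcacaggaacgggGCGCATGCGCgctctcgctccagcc
Ndufa11: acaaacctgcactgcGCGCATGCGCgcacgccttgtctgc
Ndufa6: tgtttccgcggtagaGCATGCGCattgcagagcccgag
Sdhb: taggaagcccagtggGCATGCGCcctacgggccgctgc

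These windows lie at chr15:102671065-102671104 on the minus strand (Atp5g2), chr5:108434425-108434464 on the minus strand (Atp5k), chr5:115349096-115349135 on the minus strand (Cox6a1), chr17:56717687-56717726 on the plus strand (Ndufa11), chr15:82354352-82354389 on the minus strand (Ndufa6) and chr4:140961202-140961239 on the plus strand (Sdhb). Their cores begin 42, 50, 162, 60, 83 and 54 bases before the start. The windows of Atp5l and Ndufa8, whose cores begin 240 and 8 bases before the start, are not printed. The genes that share the NRF1 core did not share a direction. The 8 of the 9 that were measured ranged in log2 ratio from -0.48 (Ndufa11) to 0.39 (Uqcrc1), with a median of 0.05, and 3 were higher and 1 lower on both arrays, beside 39.8% and 41.9% of all 14723 genes well above background in both RNAs.

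The YY1 core was seen at another place. In 6 of the 7 genes it began 24 to 37 bases after the start, and its letters contain an ATG. Short windows around it are shown for the 2 of these genes with the highest ratio and the one with the lowest.

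Ndufs4: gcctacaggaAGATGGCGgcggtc
Atp5j2: caggacttcaAGATGGCGtcactcggtg
Ndufs7: gccgaggccaAGATGGCGgcgctggcgg

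They lie at chr13:114388045-114388068 (Ndufs4, minus strand), chr5:145191500-145191527 (Atp5j2, minus strand) and chr10:80249464-80249491 (Ndufs7, plus strand). The 7 genes with this core, all measured, had log2 ratios from -0.34 (Ndufs7) to 0.70 (Atp5j), with a median of 0.23. Of the 7, 5 were higher and 1 lower on both arrays, beside the same 39.8% and 41.9% of all genes. A match is a description of the letters and not a site shown to be bound.

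The first comparison asked how far the members as a whole differed between the RNAs. Of the 82 genes, 75 had a usable probe, and 72 were well above background in both RNAs on both arrays: 35 of complex I, 4 of complex II, 6 of complex III, 11 of complex IV, 13 of complex V and the 3 that are not subunits. Where a gene had several probes, the brightest one stood for it. Most members differed little. Their median log2 ratio of KO over WT was 0.04, that is, 103% of WT (0.08 on the array with KO in Cy5, 0.02 on the swapped array), beside -0.01 over all 14723 genes under the same filter. The mean ratio was within 0.2 of 0 for 44 of the 72 (61.1%), beside 44.7% of all genes. Over members the ratios had an SD of 0.35, beside 0.56 over all genes. A single member had an SD of 0.14 between the arrays, which gives 0.10 for its mean ratio.

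**Figure D1:**
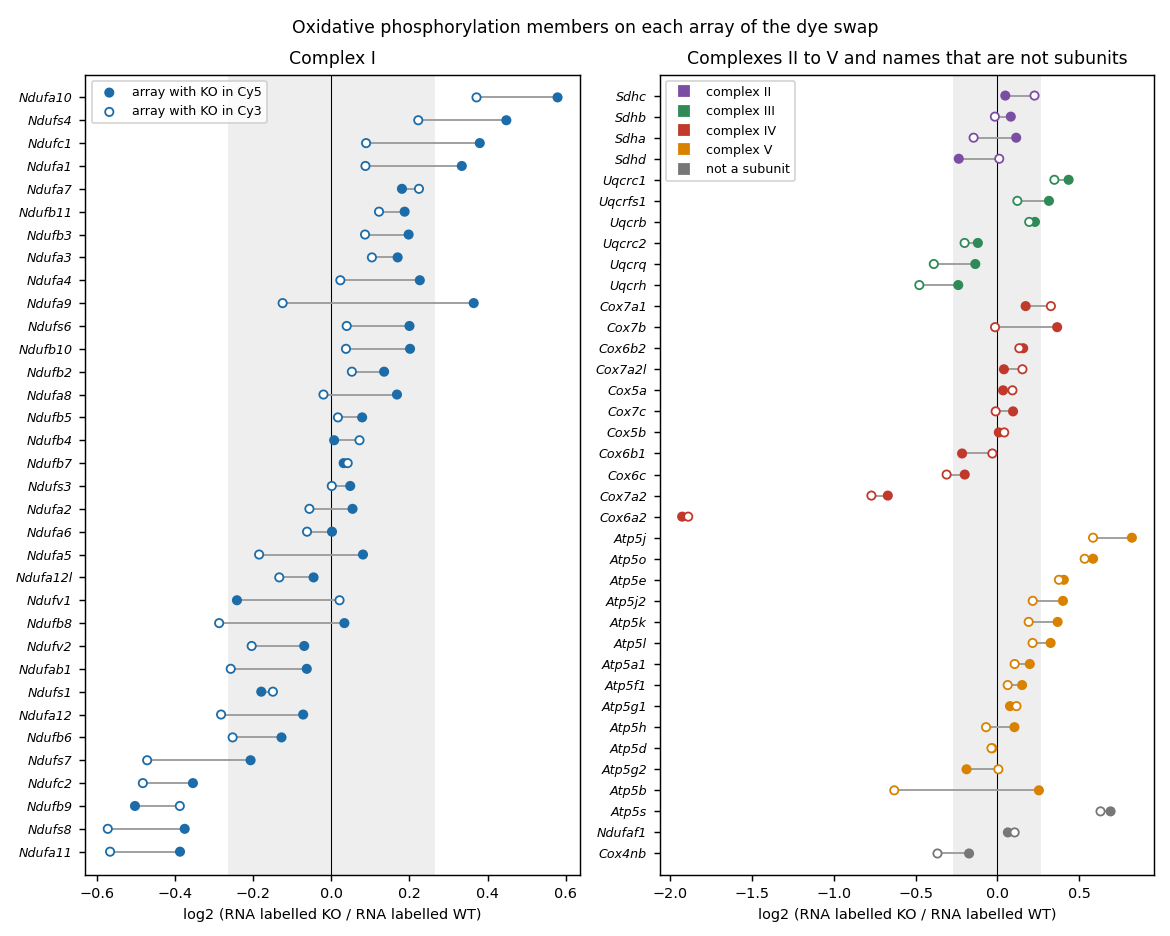
Log2 ratio of the RNA labelled KO over the RNA labelled WT for 71 of the 72 measured members, on the array with KO in Cy5 (filled points) and the array with KO in Cy3 (open points), ordered by mean ratio within each complex. The grey band holds ratios under 1.2-fold. The panels differ in the scale of the x axis. Most complex I members sit inside the band, Cox6a2 stands alone at -1.91, and Atp5j, Atp5o and Atp5e lie to the right of the band on both arrays.

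A member was counted as higher or lower when its ratio was at least 1.2-fold in the same direction on each array. By this rule 7 of the 72 members were higher, beside 17.8% of all genes and 20.0% of the brightest genes (the top 1 of 4 groups of equal size by spot brightness). They included Atp5j, Atp5s, Atp5o, Ndufa10, Uqcrc1 and Atp5e. Lower by the same rule were 6 of 72, beside 19.0% of all genes and 21.2% of the brightest genes. They were Cox6a2, Cox7a2, Ndufa11, Ndufs8, Ndufb9 and Ndufc2. The shares of the members (9.72% and 8.33%) were thus below both backgrounds. The brightest genes are given because 60 of the 72 members were among them, and spot brightness depends on the probe as well as on the transcript. With median centring in place of loess, which leaves the dye effect in, 0 members were higher and only Cox6a2 was lower by this rule. At 2-fold, 0 of 72 were higher and 1 (Cox6a2) was lower, beside 2.81% and 2.68% of all genes.

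**Figure D2:**
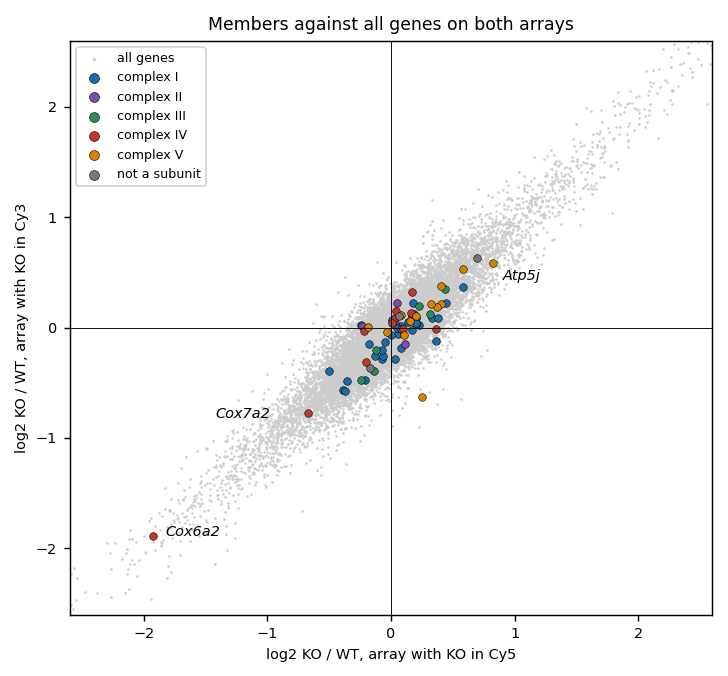
Log2 ratio of KO over WT on the array with KO in Cy5 (x axis) and on the array with KO in Cy3 (y axis) for all measured genes (grey) and for 71 of the 72 members, coloured by complex. Both axes end at 2.6 and leave out genes beyond. Members lie in the middle of the cloud, apart from Cox6a2 at -1.93 and -1.89. The complex V point below the cloud, at 0.25 and -0.63, is Atp5b.

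Complex I, the NADH dehydrogenase, had a median log2 ratio of 0.04 over 35 genes (0.05 on the array with KO in Cy5, 0.0009 on the swapped array). On both arrays 17 of its genes were higher by any amount and 11 were lower, beside 39.8% and 41.9% of all genes. The ratio was within 0.2 of 0 for 24 of them. Its genes did not move as 1 block. The 7 nuclear core subunits, which carry out the electron transfer, had a median of -0.14 (SD over genes 0.37). The other 28 had a median of 0.06 (SD 0.22). On both arrays 2 of the 7 were higher and 4 lower, and 15 of the 28 were higher and 7 lower, beside the same shares of all genes. The difference between these parts was not tested.

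Ndufa10, an accessory subunit of the membrane arm (chromosome 1, 94294868 to 94297825), had signals of 4180 in KO and 2797 in WT, and of 4027 and 3113 with dyes exchanged, a ratio of 0.48. Ndufs4, an accessory subunit whose loss causes a Leigh-like disease in mice, had a ratio of 0.34. It passed 1.2-fold on 1 array only (0.45 and 0.22).

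At the lower end, Ndufa11, a membrane subunit (chromosome 17, 56402942 to 56403001), had signals of 1437 in KO and 1881 in WT, and of 1435 and 2126 on the swapped array. The KO signals lay below the WT signals, and the ratio was -0.48 (-0.39 and -0.57), or 71.8% of WT. A dimmer probe that overlaps this one gave -0.32 (-0.20 and -0.44) and passed 1.2-fold on the swapped array only. Ndufs8, a core iron-sulfur subunit (chromosome 19, 3911200 to 3911568), had signals of 1214 against 1575 and of 1150 against 1710, a ratio of -0.47. Ndufb9, an accessory subunit of the membrane arm (chromosome 15, 58769500 to 58769559), had signals of 24648 against 34940 and of 24418 against 31964, a ratio of -0.45. Ndufc2 was also lower at -0.42. The core iron-sulfur subunit Ndufs7 reached -0.34, with -0.21 and -0.47 on the single arrays. Ndufa4, which is now placed in complex IV, had a ratio of 0.12. Ndufa12l, now known as the assembly factor Ndufaf2, kept its place by name and had a ratio of -0.09.

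Some complex I genes had probes that differed. For Ndufa12 the brightest probe gave -0.18, while the other probes gave -0.57 and -0.55 and lie elsewhere in the gene, from 93629774 to 93633108 on chromosome 10 against 93650616 for the brightest. For Ndufab1, the mitochondrial acyl carrier protein, the brightest probe gave -0.16 and the next -0.43. Over all members, 22 genes had several usable probes. The probes agreed within 0.2 for 11 of them and differed by over 0.5 for 1 (Atp5j2).

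Complex II, succinate dehydrogenase, also serves the citric acid cycle. Its 4 genes had a median of 0.01 (0.06 and -0.0023 on the single arrays), and none passed 1.2-fold on both arrays, beside the 17.8% and 19.0% given above. The flavoprotein Sdha had a ratio of -0.02 and the iron-sulfur subunit Sdhb 0.03. The membrane anchors Sdhc and Sdhd had ratios of 0.14 and -0.11. The arrays had opposite signs for 3 of the 4, so only Sdhc (0.05 and 0.23) kept a direction. A further probe of Sdha, on chromosome 13 at 74794310 to 74794369, gave 0.41 (0.34 and 0.48), so the value of Sdha depended on the probe.

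Complex III, the cytochrome bc1 complex, had a median of 0.03 over 6 genes (0.05 and -0.04 on the single arrays, so of no settled sign), with 3 higher and 3 lower on both arrays, beside 39.8% and 41.9% of all genes. At 1.2-fold 1 of 6 was higher and none lower, beside 17.8% and 19.0%. Uqcrc1, a large core protein on the matrix side (chromosome 9, 108806516 to 108806575), had signals of 16044 in KO and 11866 in WT, and of 13348 and 10486 on the swapped array. Both KO signals were above both WT signals, at a ratio of 0.39 (0.44 and 0.35), and its other probe gave 0.60. Uqcrc2, its partner in the core, had a ratio of -0.16. The Rieske iron-sulfur protein Uqcrfs1 had 0.22 and the small subunit Uqcrb 0.21. Uqcrh, the hinge protein near cytochrome c1, had -0.36 (-0.24 and -0.48). Uqcrq had -0.26 on a dim probe, and 0.11 on a brighter probe that carried an outlier flag.

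Complex IV, cytochrome c oxidase, had a median of 0.04 over 11 genes (0.03 and -0.01 on the single arrays), and it held the largest single difference of the set. Cox6a2, the form of subunit VIa found in heart and skeletal muscle (chromosome 7, 127996794 to 127996853), had signals of 143 in KO and 543 in WT on the array with KO in Cy5, and of 154 and 572 on the other. The groups were far apart on both arrays. The log2 ratio was -1.91 (-1.93 and -1.89), so the level was 3.76-fold higher in the RNA labelled WT. These signals contain the offset of 50 units added after background correction, which draws dim ratios towards 0, and the ratio was -2.66 by the scanner software's own values. The ubiquitous form, Cox6a1, had no usable value (0.59 and -0.14 with the outlier flag ignored).

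Since Cox6a2 is a muscle form, the markers of striated muscle are given beside it. Of 10 such genes with a usable probe, 3 were well above background in both RNAs: Acta1 at 0.26, Tnnt2 at 0.66 and Tnnt3 at -0.31. The defining factors Myod1 and Myog and the muscle creatine kinase Ckm were not. The summed signal of the 10 was 12682 and 12765 in KO and 10506 and 10612 in WT, and most of it was Acta1 alone (11377 and 11459 in KO, 9459 and 9561 in WT). The part of muscle-like cells in the value of Cox6a2 was not tested. In RNA of whole cultures, fewer cells of a type and less RNA per cell cannot be told apart. The 96 other genes measured within 2 Mb of Cox6a2 had a median of -0.21.

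Cox7a2, the common form of subunit VIIa (chromosome 9, 79541092 to 79541151), was the other complex IV gene below the threshold. It had signals of 8212 in KO and 13069 in WT, and of 7499 and 12793 on the swapped array. The ratio was -0.72 (-0.67 and -0.77), or 60.7% of WT. A brighter probe that overlaps it was flagged and gave -0.71 and -0.30. The muscle form Cox7a1, on a dim spot, had a ratio of 0.25 (0.17 and 0.33). Cox7a2l, a related protein that links complexes III and IV, had 0.10. The common and muscle forms of subunit VIIa thus had ratios of opposite sign.

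The other isoform pairs differed little or were not measured. Cox6b1, the common form of subunit VIb, had -0.12. The testis form Cox6b2, on a dim spot, had 0.15 (0.30 by the scanner software's own values). Cox7b on chromosome X had 0.18 (0.37 and -0.01), so the arrays did not share a sign. Cox6c was at -0.26. Cox4i2, Cox8b and Cox8c, the forms of lung, muscle and testis, did not rise well above background in either RNA, and no ratio is given for them. Cox5a and Cox5b, which have 1 form each, had 0.06 and 0.02.

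**Figure D3:**
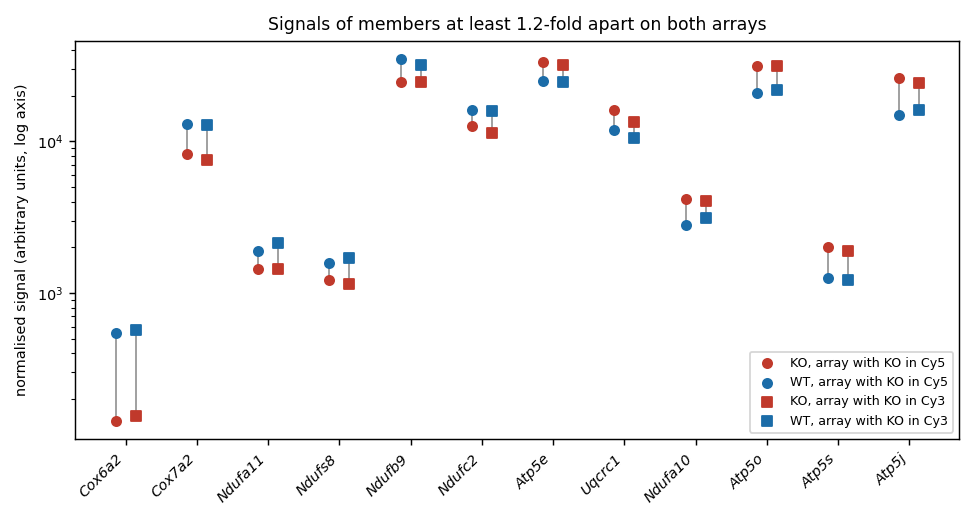
Normalised signals (arbitrary units, log axis) in the RNA labelled KO (red) and in the RNA labelled WT (blue) for 12 of the 13 members at least 1.2-fold apart on both arrays, with circles for the array with KO in Cy5 and squares for the array with KO in Cy3. Signals are comparable within a gene only. The order of the RNAs was the same on both arrays for each gene shown, and the gap was widest for Cox6a2 (143 against 543 and 154 against 572).

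Complex V, the ATP synthase, had the highest median of the 5 complexes as processed here, 0.15 over 13 genes (0.25 on the array with KO in Cy5, 0.12 on the swapped array), or 111% of WT. The SD of this median between the arrays was 0.10. It stayed above 0 in every setting tried, but it was not the highest with outlier-flagged spots kept (0.10, against 0.16 for complex III). On both arrays 9 of 13 genes were higher and 1 was lower, beside the 39.8% and 41.9% of all genes. At 1.2-fold 3 of 13 were higher and none lower, beside 17.8% and 19.0%. The 9 genes of the peripheral stalk and Fo had a median of 0.27 and the 4 measured genes of F1 a median of 0.06. At 1.2-fold 2 of 9 (Atp5j and Atp5o) and 1 of 4 (Atp5e) were higher. Atp5j and Atp5o lie in a region of chromosome 16, described below, where other genes were higher as well. The other genes of the stalk and Fo had ratios from -0.09 (Atp5g2) to 0.31 (Atp5j2). The difference between these parts was not tested.

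Atp5j, coupling factor 6 of the peripheral stalk (chromosome 16, 84710523 to 84710582), was the highest member of all. It had signals of 26211 in KO and 14823 in WT on the array with KO in Cy5, and of 24138 and 16096 on the other. Both KO signals were above both WT signals, at a ratio of 0.70 (0.82 and 0.58), or 1.63-fold. Atp5o, the subunit that joins the stalk to the head of F1 (chromosome 16, 91814153 to 91814212), had signals of 31113 against 20743 and of 31462 against 21739. Its ratio was 0.56, or 1.47-fold. Atp5e, the small epsilon subunit of F1 (chromosome 2, 174104094 to 174104153), had signals of 33222 against 25073 and of 31749 against 24466, a ratio of 0.39. In all 3 genes the channels did not overlap.

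Both of the highest complex V genes lie on the distal end of chromosome 16, and other genes there were higher as well. This region was looked at after the values were known. Between the 2 genes and 1 Mb to either side, 49 genes were measured, these 2 included. Of the 49, 38 were higher on both arrays, beside 39.8% of all genes. The median of the 49 was 0.53, beside -0.12 over the 470 genes of chromosome 16. It was -0.17 over the 396 genes that lie more than 1 Mb before Atp5j. The other 74 genes, from there to the end of the chromosome, had a median of 0.49, so the higher values were not bounded by the 2 members. Within 2 Mb of Atp5j, 7 of 7 other genes were higher on both arrays, with a median of 1.06. Within 2 Mb of Atp5o 28 of 33 other genes were, with a median of 0.52, beside the same 39.8% of all genes. Ndufb4, the third member on this chromosome, lies outside the region and had a ratio of 0.04. The part of the region in the values of Atp5j and Atp5o was not tested.

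**Figure D4:**
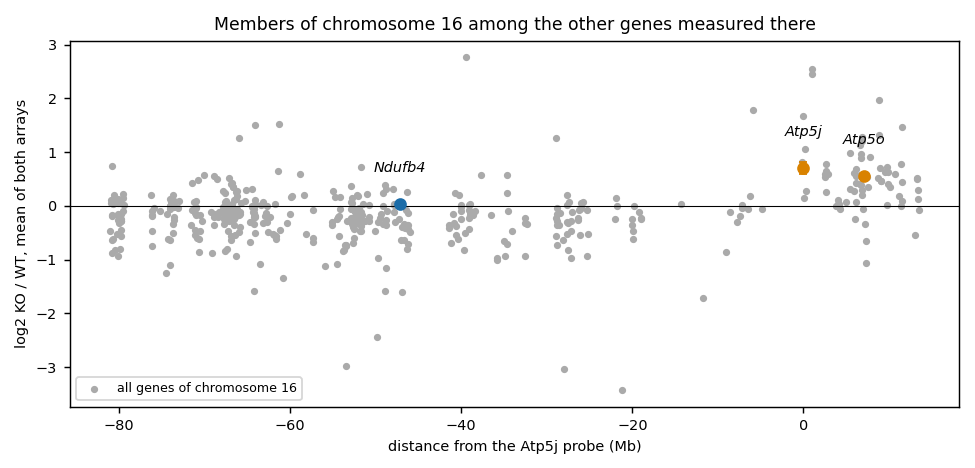
Mean log2 ratio of KO over WT for the 470 measured genes of chromosome 16, by distance of their probes from the Atp5j probe in Mb, with the 3 members in colour and bars from the lower to the higher array value. Atp5j (0.70) and Atp5o (0.56) lie among genes that are mostly above 0, while the genes before them lie mostly below 0.

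No other member above or below the threshold had a neighbour median so far from 0. Genes within 2 Mb had medians between -0.24 (Ndufc2) and 0.17 (Atp5s) for the other 11. For Uqcrc1 the median of 89 neighbours was 0.06, against its own 0.39. For Ndufa11 the median of 44 neighbours was 0.05, against its own -0.48. Neighbours still leaned with some members. Of 96 for Cox6a2, 63 were lower on both arrays and 21 higher, beside 41.9% and 39.8% of all genes. Of 27 for Ndufb9, 18 were lower and 6 higher, and of 26 for Ndufc2, 17 and 4. Of 23 for Atp5e, 15 were higher and 4 lower. For Ndufa11 (20 higher, 13 lower) and Ndufs8 (46 and 39) they leaned the other way. The part of the neighbours in these values was not tested.

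Among the other ATP synthase genes, the Fo subunits Atp5j2, Atp5k and Atp5l had ratios of 0.31, 0.28 and 0.27. Each was higher on both arrays but passed 1.2-fold only with KO in Cy5. The bright probe stood for Atp5j2, and its dim probe gave -0.34. The c subunit of the rotor ring is encoded by Atp5g1, Atp5g2 and Atp5g3, which give the same mature protein. Atp5g1 had 0.10 and Atp5g2 -0.09, and Atp5g3 had no usable value. Atp5d was at -0.03. Atp5b, the catalytic beta subunit, was the lowest at -0.19. Its brightest probe gave 0.25 and -0.63 on the single arrays, so it showed no direction, and its other probes gave -0.04 and -0.06.

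The 3 names that are not subunits were described apart. Atp5s, once listed with the ATP synthase and now called Dmac2l (chromosome 12, 70663138 to 70663197), had signals of 2017 in KO and 1249 in WT, and of 1895 and 1224 with dyes exchanged. The ratio was 0.66 on each of its probes, and the 554 measured genes of chromosome 12 had a median of 0.19. Ndufaf1, an assembly factor of complex I, had 0.08. Cox4nb, now Emc8 and a part of the membrane protein insertion complex of the endoplasmic reticulum, had -0.27.

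Loss of spots to outlier flags weighed on these genes more than on others. The scanner software flagged 11 of the 115 member probes (9.57%), beside 0.73% of all probes. All 11 lay among the brightest 5% of probes, where 14.5% were flagged, and 66 member probes lay there. As a result 7 genes had no usable value: Cox4i1, Cox6a1, Cox8a, Ndufa13, Ndufs5, Atp5c1 and Atp5g3. With the flags ignored, Cox4i1, the common form of subunit IV, had -0.14 and -0.12, and Ndufs5 had -0.17 and -0.32. Atp5c1 had 0.21 and -0.32, and Atp5g3 had 0.32 and -0.58, each with no common direction. Ndufa13 (-0.01 and -0.15) and Cox8a (0.07 and -0.05) lay near 0.

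Genes that act beside the complexes were read from lists. Of 37 listed respiratory genes outside the rule, only 6 were on the array under the listed name. Of these, 5 were measured, with a median of -0.17. They include cytochrome c (Cycs, -0.18), cytochrome c1 (Cyc1, -0.09), the ATP synthase inhibitor Atpif1 (-0.17) and the complex III gene listed as Uqcr (-0.30), the 1 of the 5 that was lower at 1.2-fold. Of 18 assembly factors, 3 were higher (16.7%) and 2 lower (11.1%), beside 17.8% and 19.0% of all genes, with a median of 0.03. The complex IV factors Cox18 (0.79) and Cox19 (0.52) were higher, while Cox11 (-0.53) and the F1 factor Atpaf1 (-0.68) were lower. The assembly factors thus ranged from -0.68 to 0.79.

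Of 18 regulators of mitochondrial biogenesis, 3 were higher (16.7%) and 2 lower (11.1%), beside the same 17.8% and 19.0% of all genes, with a median of 0.08. The nuclear receptor Esrra had 0.59. The mitochondrial transcription genes Polrmt (-0.49) and Tfb1m (-0.54) were lower. Nrf1, whose motif is printed above, had -0.34 (-0.24 and -0.45), and Yy1 had 0.33 (0.24 and 0.43), so neither passed 1.2-fold on both arrays. The coactivator Ppargc1a was not well above background in both RNAs.

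Of 18 genes of the citric acid cycle and pyruvate dehydrogenase, 3 were higher (16.7%) and 1 was lower (5.56%), beside 17.8% and 19.0% of all genes, with a median of 0.09. Suclg2 had 0.50 and citrate synthase (Cs) -0.44. Of 9 carriers and porins, 3 were higher (33.3%) and 1 was lower (11.1%). The porins Vdac1 and Vdac2 had 0.40 and 0.42, while the porin Vdac3 had -0.23 (-0.13 and -0.34). The pyruvate carrier gene Brp44l had -0.68. Of 21 genes of protein import and folding, 7 were higher (33.3%) and none lower, with a median of 0.22. Small Tim chaperones were among them (Timm9 at 0.79 and Timm8b at 0.77), as were the prohibitins Phb (0.60) and Phb2 (0.61). Of 75 genes of the mitochondrial ribosome, 16 were higher (21.3%) and 4 lower (5.33%), with a median of 0.09.

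**Figure D5:**
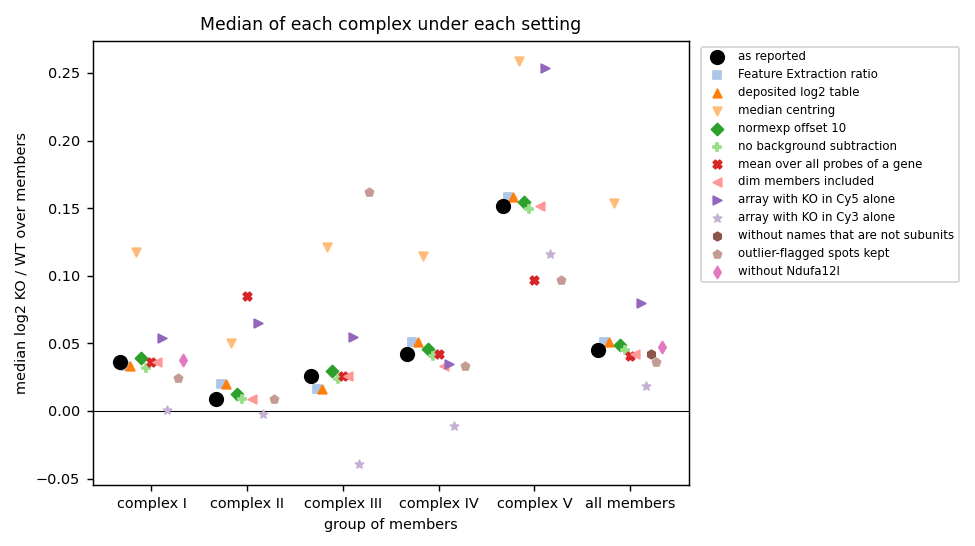
Median log2 ratio of KO over WT over the measured members of each complex and of all members, as reported (large black points) and under each alternative setting (small symbols). Complex V lies highest as reported (0.15), though below complex III where flagged spots are kept (0.10 and 0.16), and complexes I to IV within 0.05 of 0. Median centring in place of loess moved 4 of the 5 complexes upward beyond their SD between arrays.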

How the data were processed

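Each sample was a 2-colour Agilent whole mouse genome array of RNA labelled Lats2-/- (KO) and Lats2+/+ (WT), labelled from oligo-dT primed cRNA. Per the labels, the authors read the arrays with Agilent Feature Extraction 10.5.1.1. The deposited files hold the mean and local background intensity of each spot, the software's log10 ratio of Cy5 over Cy3, and well-above-background, saturation and outlier flags. A second deposited table gives 1 log2 value per probe and array, equal to the software's ratio turned to KO over WT. Both arrays share a slide and a scan, so no batch could be separated.

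Background was corrected by normexp with an offset of 50 (limma 3.58.1, R 4.3.3), and ratios were normalised by loess within each array, with control and outlier-flagged spots at weight 0. Flagged spots were then left out, spots of a probe averaged, the swapped array turned and both arrays averaged. The steps were tested on simulated data. Tables and plots used Python 3.11.15, pandas 2.3.3 and matplotlib 3.10.9.

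A gene was measured if it was well above background in each genotype on each array, in a share of at least 0.5 of a probe's spots. Signals are channel values after loess and Aquantile. Probe coordinates are mm8 (NCBI36), and the place of probes within exons was not analysed here. Named members are the 3 highest and 3 lowest of each complex, those past 2-fold, those not above background, isoform families, Sdh genes and genes with probes over 0.5 apart. Others were named after their values were seen, and 1 member that meets the rule is not reported here by name, though counts and medians include it. Members and lists were chosen with earlier results of these data known. The alternatives tried were the software's ratio, the deposited log2 table, median centring, offset 10, no background subtraction, the mean over a gene's probes, dim members included, each array alone, only true subunits, and the methods' t-test.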

Additional observations from a re-analysis of the deposited data

How the results depend on the processing

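No paired analysis was possible because there is 1 replicate per genotype. Of 113 recomputed medians and counts, 99 stayed within the spread (1 SD between the arrays for a median, 1.5 times for a count) and 14 did not. Some of the 113 could add nothing: the deposited table repeats the software's ratio, and adding dim members can change only sets that hold any. The share that stayed is thus no measure of stability. Median centring, which keeps the intensity-dependent dye effect, moved the medians of complexes I, III, IV and V and of all members to 0.12, 0.12, 0.11, 0.26 and 0.15, and left 0 members higher and 1 lower (Cox6a2) at 1.2-fold. With the array of KO in Cy5 alone, medians were 0.065 for complex II and 0.25 for complex V, with 16 higher members. With that of KO in Cy3 alone, the median of complex IV was -0.011, with 14 lower members. The mean over all probes gave 0.085 for complex II. Keeping outlier-flagged spots, an alternative chosen after seeing the data, gave 0.16 for complex III. Leaving out Ndufa12l, also chosen later, moved nothing beyond the spread. The same 7 higher members were called by the software's ratio, the deposited table, offset 10, no background subtraction and kept flags, and the 6 lower ones as well, with Uqcrq added by the first 2. The methods' t-test over both arrays covers dye and hybridisation error only and says nothing about stability between genotypes. At 2-fold it called 0 members higher and 1 lower, and 0 members after Benjamini-Hochberg adjustment over all genes. For 33 named members, 278 of 297 values stayed within the SD between arrays, 12 became larger and 7 smaller. These too include values that could not move, such as the mean over probes for a gene with 1 probe. The sign changed for 12 values, of members at most 0.31 in size, and for 0 members past 1.2-fold. Atp5j2 moved from 0.31 to -0.01 with the mean over its probes. The cause of these moves was not tested. Depth is limited by dim spots: Cox6a2 had -1.91 as reported, -2.29 with offset 10, -2.11 with no background subtraction, and -2.66 by the software's ratio, which also changes the normalisation.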
